A study of Bos taurus with 12 samples.

Results

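The luteal transcriptome was compared between 4 h and 12 h after prostaglandin F2α (PGF2α), in 8 of the 12 RNA-seq libraries of the series. The libraries came from Bos taurus cows of mixed breed, and each library was made from the corpus luteum of a different cow. All cows had synchronized estrous cycles and were on day 10 of the luteal phase. They received either a luteolytic dose of PGF2α or saline in the muscle, and the ovary was then removed. In 4 cows this was done 4 h after PGF2α, and in 4 other cows 12 h after PGF2α. The 4 saline cows, for which the labels give no hour of collection, gave the level with which each time was also compared. They were part of the same model fit, so they also entered the estimate of spread used to compare 4 h with 12 h. The study's methods describe the animals as nonlactating composite beef cows, and their age is not given in the sources used here. Because each time was sampled in separate cows, a difference between 4 h and 12 h is a difference between groups of animals and not a change followed in 1 animal. In whole tissue, fewer cells of a type and less RNA per cell cannot be told apart.

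The corpus luteum is the gland that makes progesterone in the second part of the estrous cycle, and PGF2α from the uterus ends its life in the cow. PGF2α binds a receptor (PTGFR) on luteal cells that acts through Gq, phospholipase C, inositol trisphosphate and calcium, and through protein kinase C on MAP kinases. A first wave of immediate early genes, cytokines and feedback inhibitors follows, then the loss of progesterone synthesis, and later the involution of vessels and luteal cells. The interval from 4 h to 12 h lies between the first wave and structural regression.

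Total expected counts were 15527149 to 22352909 per library at 4 h and 12471493 to 17880450 at 12 h (p = 0.143, by an exact two-sided permutation test). Genes that define steroidogenic luteal cells were abundant at both times. The cholesterol side-chain cleavage enzyme CYP11A1 was at 5775, 5509, 4676 and 4730 TPM (a level adjusted for transcript length and library total) at 4 h and 2734, 1628, 3184 and 2516 TPM at 12 h. Cows are named as their libraries are, with a prefix for the group (C, 4H or 12H). Hemoglobin was low, with 1 of 6 erythrocyte markers passing the count minimum. Cow 4H-6455 of the 4 h group was the library nearest the 12 h mean in 3391 of the 6764 genes that differed between the times (50.1%, against 39% of all genes tested). At 12 h, cow 12H-6314 was the library nearest the 4 h mean in 2517 of these genes (37.2%, against 31.2% of all genes). Counts are therefore also given without these 2 cows.

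A gene was called when edgeR's quasi-likelihood test gave a Benjamini-Hochberg adjusted p under 0.05 over 14481 genes, those that reached 10 counts in 4 or more libraries. Between 4 h and 12 h, 6764 genes were called (46.7%), of which 3252 were higher at 12 h (22.5%) and 3512 lower (24.3%). The larger changes were mostly decreases: 1596 genes fell at least 2-fold (11%) and 744 rose at least 2-fold (5.14%). The scaled counts (CPM) of the 4 cows at each time did not overlap in 6048 genes (41.8%). In 2962 of them the 12 h cows were higher (20.5%) and in 3086 lower (21.3%). By comparison, 2062 genes were called between 4 h and saline (14.2%), 1253 higher (8.65%) and 809 lower (5.59%), and 7082 between 12 h and saline (48.9%). Without cows 4H-6455 and 12H-6314, 3038 genes were higher at 12 h (21%) and 3711 lower (25.6%).

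The split between increases and decreases depended on the scale. On log2(TPM + 1), 1304 genes were higher (9%) and 5194 lower (35.9%), and the median gene shifted by -0.21 on that scale and by 0.02 on the count scale. Shorter transcripts tended to be higher at 12 h. The median log2 fold change was 0.38 in the tenth of genes with the shortest transcripts (median length 673 bases) and -0.38 in the tenth with the longest (median 5734 bases). Weighting each gene by its TPM, the mean length of a transcript was 1700 ± 54.2 bases at 4 h and 1479 ± 69.7 bases at 12 h (mean ± SD, n = 4 each, p = 0.0286 by an exact two-sided permutation test, the smallest that 4 against 4 can give). When each library's trend with length was removed, 3739 genes were higher (25.8%) and 2865 lower (19.8%), and the medians of the groups with the shortest and longest transcripts were 0.17 and 0.05. Directions below are on the count scale, and a list whose median changes sign on another scale is named as such.

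**Figure D1:**
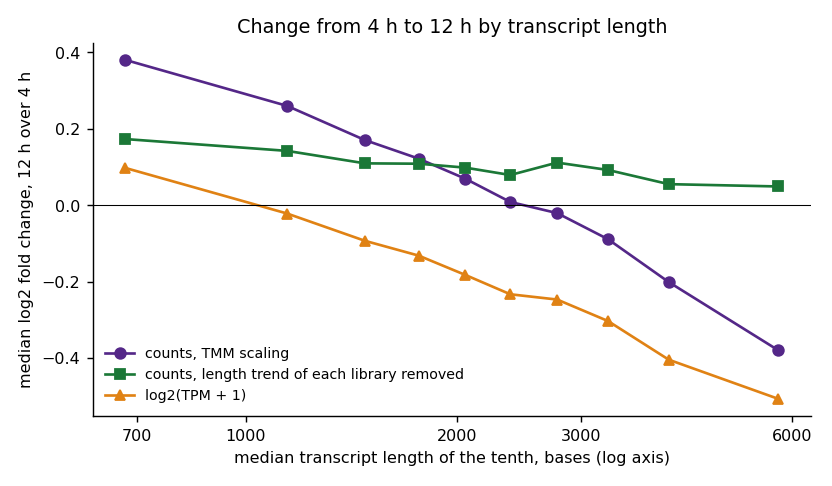
Median log2 fold change from 4 h to 12 h (vertical axis) in 10 groups of genes ordered by transcript length (horizontal axis, bases, log axis). On counts with TMM scaling the median ran from 0.38 in the shortest to -0.38 in the longest group, from 0.17 to 0.05 once each library's length trend was removed, and from 0.10 to -0.51 on log2(TPM + 1).

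To describe the course of each gene, the calls of 3 comparisons were combined: 4 h against saline, 12 h against 4 h and 12 h against saline. Of the 2062 genes called at 4 h, 580 had returned by 12 h (28.1%), which means that they were called in the opposite direction between the times and no longer differed from saline by the test. A further 98 had partly returned (4.75%), moving back while still called against saline on the same side. Another 140 reversed (6.79%), moving past the saline level until they were called on its other side. The early change persisted in 751 genes (36.4%), which were still called at 12 h with no call between the times, and was extended in 291 (14.1%), which moved further the same way. In 202 genes (9.80%) the calls left the course unresolved. Outside these, 4435 genes were counted as changes that only began after 4 h (30.6% of those tested), with no call at 4 h and calls against both 4 h and saline at 12 h. A missing call at 4 h does not show that no change had begun by then. The comparisons share libraries, so that an error in the 4 h mean moves the first and second of them in opposite directions, and these counts describe the genes without a test of their own. Leaving out 1 cow moved some of these counts by more than 1.5 times. The returned genes numbered 311 without cow 4H-5341 and 383 without saline cow C-7514, the reversed genes between 76 without saline cow C-7514 and 219 without cow 4H-6455, and the extended genes 152 without saline cow C-7514, 166 without cow 4H-6456 and 189 without cow 4H-6455.

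**Figure D2:**
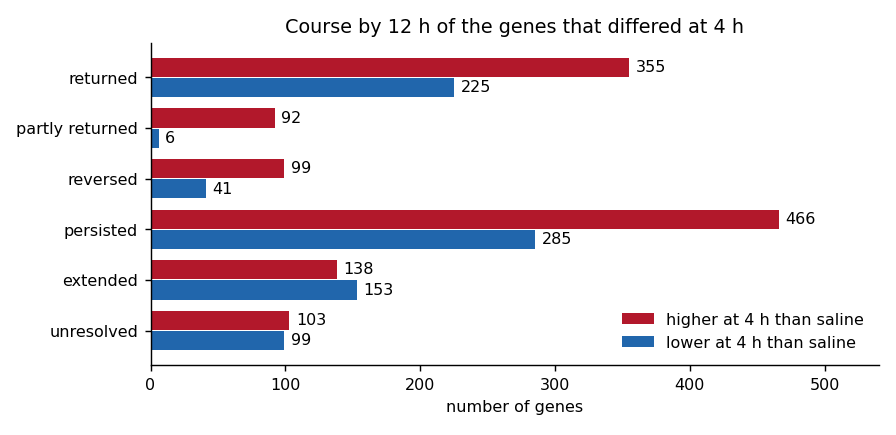
Number of genes (horizontal axis) in each course, among the 2062 genes called between 4 h and saline, drawn separately for genes higher (red) and lower (blue) at 4 h. Persisting changes were the most frequent in both directions, with 466 and 285 genes, and 92 of the 98 genes that partly returned had been higher at 4 h.

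The sizes and directions of the courses are given as description. The calls that define a course also constrain these sizes. Genes that returned after an early increase, 355 in number, had a median log2 difference from saline of 0.92 at 4 h and 0.01 at 12 h. For 536 of the 580 returned genes the fitted log2 difference at 12 h was under 50% of that at 4 h. Genes that partly returned had the largest early increases, with a median of 1.91 at 4 h and 1.01 at 12 h. The median of the persisting increases was 1.05 at both times. In the extended group, the 138 genes that had risen went from a median of 0.80 to 1.60, and the 153 that had fallen went from -0.68 to -1.56. Among the genes that only began to change after 4 h, 2042 rose with a median of 0.67 against saline and 2393 fell with a median of -1.0, and their median transcript lengths were 1647 and 2793 bases. In these late decreases cow 4H-6455 was the 4 h library nearest the 12 h mean in 1563 of 2393 genes (65.3%).

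**Figure D3:**
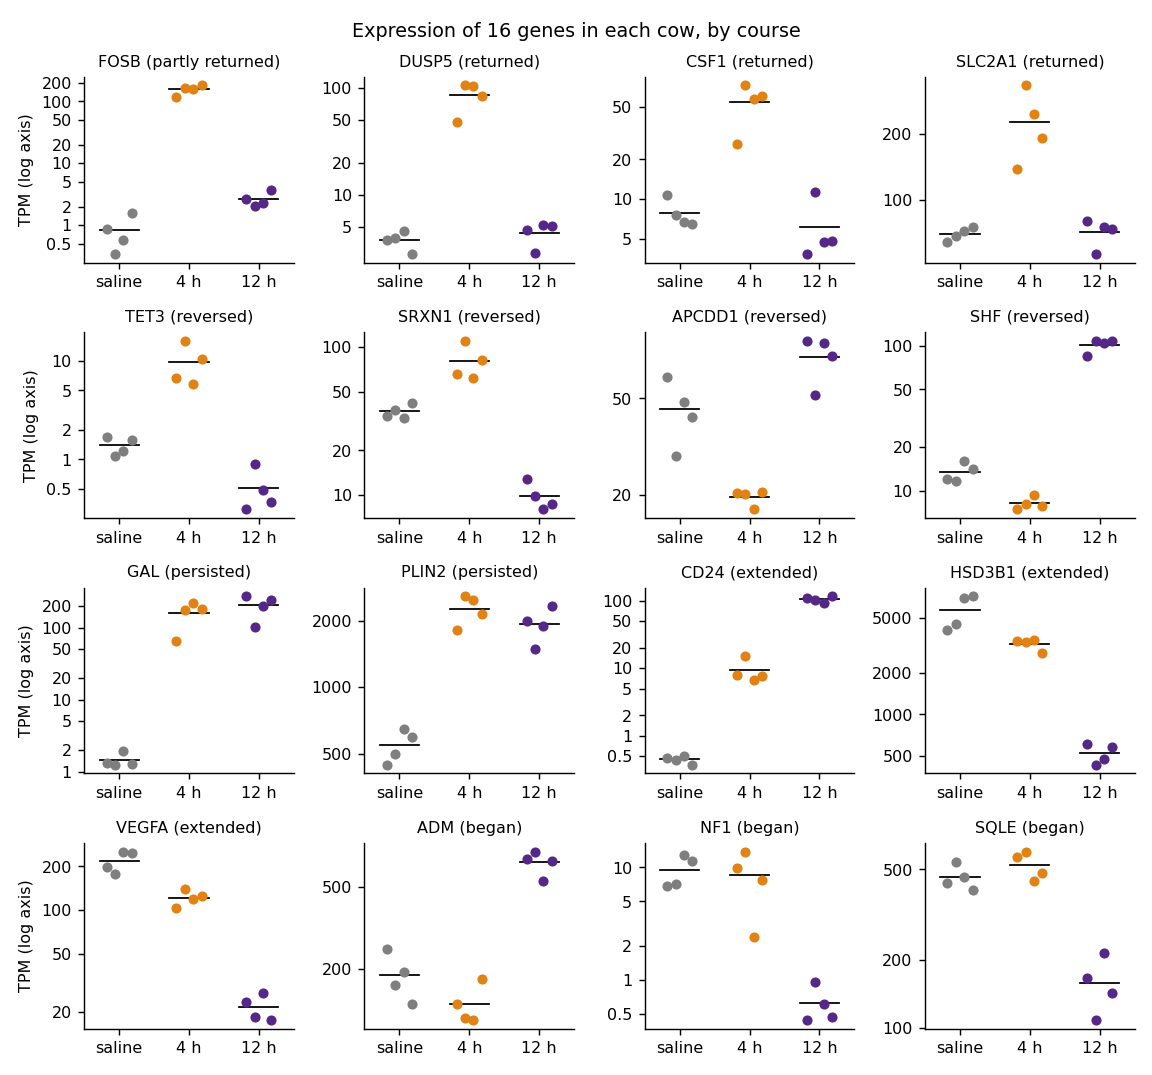
TPM (log axis) of 16 genes in each of the 12 cows, with saline in gray, 4 h in orange and 12 h in purple, the black line marking the mean of the 4 cows and the course given in each title. FOSB fell from between 119 and 181 TPM at 4 h to between 2.04 and 3.71 at 12 h, while CD24 rose from between 6.76 and 15.2 to between 91.1 and 117.

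Genes that returned included 5 of the 31 tested feedback inhibitors of signalling, while 4 others persisted. Of these 31 genes, 12 had been higher at 4 h than in saline. Among all genes tested 4.0% returned and 5.19% persisted, and among those called at 4 h 28.1% and 36.4%. DUSP5 (chr26:31062738-31075701, ARS-UCD1.2), a phosphatase that inactivates ERK in the nucleus, was at 3.74, 3.92, 4.55 and 2.77 TPM in the saline cows, 48.4, 106, 104 and 85 TPM at 4 h and 4.62, 2.81, 5.17 and 5.04 TPM at 12 h. The 12 h cows lay within or just above the saline range and well below every 4 h cow. The log2 fold change from 4 h to 12 h was -4.00 ± 0.32 (SE, adjusted p = 9.9e-06). EGR3, a transcription factor of the early growth response family, went from 21.7, 33.9, 33.1 and 23.6 TPM to 1.97, 1.66, 4.2 and 1.7 TPM, with 1.8, 1.61, 1.62 and 5.99 TPM in saline. Its 4 h cows all exceeded the 12 h cows (log2 fold change -3.26 ± 0.46, SE, adjusted p = 0.00017). The EGR corepressor NAB2, the ERK phosphatase DUSP4, the Ras inhibitor SPRED2 and the TGF-beta mediators SMAD3 and SMAD7 followed the same course, with log2 fold changes between the times of -0.79, -1.43, -1.43, -1.53 and -1.31, each called.

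Of the 32 tested cytokine and chemokine genes, ligands and receptors, 6 returned from an early increase, 8 persisted and 1 was extended. IL6, CXCL8 and CCL2 were among the 8 that persisted. In this list 17 genes had been higher and 2 lower at 4 h than in saline. Among the 2062 genes called at 4 h, 28.1% returned, 36.4% persisted and 14.1% were extended. Whether the list differs from these shares was not tested. CSF1, the growth factor of macrophages, was at 10.7, 7.56, 6.64 and 6.5 TPM in saline, 26.3, 72.9, 57.3 and 60.1 TPM at 4 h and 3.81, 11.3, 4.69 and 4.83 TPM at 12 h. At 12 h cow 12H-6314 stood apart at 11.3 TPM, and the other 3 lay below every saline cow. The difference between the times was -2.91 ± 0.35 (SE, adjusted p = 5.8e-05) on the log2 scale. The monocyte chemokine CCL8 went from 22.3, 62.7, 35.8 and 106 TPM to 4.36, 9.43, 9.26 and 11.3 TPM without overlap (log2 fold change -2.45 ± 0.46, SE, adjusted p = 0.0011). CCL4, a chemokine with a close paralog (CCL3) whose reads may not be fully separable, went from 17.5, 41.9, 18 and 108 TPM to 6.87, 8.59, 5.45 and 4.05 TPM. Cow 4H-6456 was highest of the 4 h cows in both chemokines. BCL3, a coactivator of NF-kB, and BIRC2, an inhibitor of apoptosis, also returned, at -1.03 and -1.62.

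Of the glycolysis and hypoxia genes 4 of 34 returned, and of the heat shock chaperones 3 of 19 returned and 2 persisted. Among all genes tested 4.0% returned and 5.19% persisted. At 4 h, 7 of the glycolysis and hypoxia genes and 6 of the chaperones had been higher than in saline. SLC2A1, the main glucose transporter of many cell types, was at 64.7, 68.4, 72.5 and 75.4 TPM in saline, 138, 330.4, 245 and 190.1 TPM at 4 h and 80.8, 57, 75.7 and 73.8 TPM at 12 h. Every 4 h cow lay above both other groups, and the fold change between the times was -1.37 ± 0.25 (SE, adjusted p = 0.0008) on the log2 scale. The chaperones HSPH1, DNAJA1 and HSP90AA1 fell, with log2 fold changes between the times of -1.10, -0.89 and -0.64. PDE8A, a phosphodiesterase that degrades cAMP, was at 60.5 to 94.6 TPM at 4 h and 18.1 to 21.4 TPM at 12 h, the latter below all saline cows in TPM but with no call against saline on counts (-0.16 ± 0.15 (SE, adjusted p = 0.39)). POR, the electron donor of microsomal cytochromes P450, returned at -0.66.

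Beside DUSP5, the returned genes with the largest early increases were MYBPC3, PI16 and SERPINB2. SERPINB2, an inhibitor of plasminogen activators, went from 11.5, 6.33, 28.9 and 39.4 TPM to 4.8, 0.37, 1.37 and 0.38 TPM, and the groups did not overlap. MYBPC3, a sarcomere protein, was low throughout, at 0.52, 1.67, 6.22 and 1.29 TPM at 4 h and 0.2, 0.18, 0.29 and 0.18 TPM at 12 h. PI16, a peptidase inhibitor of fibroblasts and T cells, was high in 2 of the 4 cows at 4 h: it was at 39.1, 6.79, 130.0 and 0.35 TPM at 4 h, with cow 4H-6455 highest, and at 2.93, 1.1, 2.28 and 8.62 TPM at 12 h. Without cows 4H-6455 and 12H-6314 its adjusted p was 0.37.

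Of the 225 genes that returned from an early decrease, the largest decreases were in SPATA18, FGD2, GPR176 and LRIG3. SPATA18, a p53 target tied to mitochondrial quality control, was at 0.53, 0.83, 0.39 and 1.25 TPM at 4 h and 1.79, 5.74, 3.76 and 2.74 TPM at 12 h, a log2 rise of 2.63 ± 0.55 (SE, adjusted p = 0.002). The stress protein sestrin 1 (SESN1), which restrains mTORC1, was at 15.5, 26.4, 27.9 and 22.7 TPM in saline, 11.6, 9.01, 10.5 and 16.1 TPM at 4 h and 21.6, 23.8, 23.5 and 25.8 TPM at 12 h. All 12 h values of SESN1 exceeded all 4 h values, and its log2 rise was 1.26 ± 0.20 (SE, adjusted p = 0.00035). FGD2, GPR176 and LRIG3 rose by 1.72, 1.75 and 1.44. The replication helicase subunits MCM3 and MCM5 rose by 0.57 and 0.49, but in TPM their groups overlapped and without cows 4H-6455 and 12H-6314 neither was called (adjusted p = 0.061 and 0.072).

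Genes that partly returned included the strongest early responders. FOSB (chr18:53074888-53081288), a subunit of the AP-1 transcription factor, was at 0.86, 0.34, 0.57 and 1.56 TPM in saline, 119, 168, 159 and 181 TPM at 4 h and 2.64, 2.04, 2.25 and 3.71 TPM at 12 h. It was the gene with the largest decrease between the times among those eligible for naming, at -5.43 ± 0.32 (SE, adjusted p = 1.7e-06) on the log2 scale, and every 12 h cow still lay above every saline cow. ARC, a cytoskeletal immediate early gene, was at or near 0 in saline and went from 43.1, 47.1, 51.1 and 41.2 TPM to 2.1, 1.09, 1.52 and 1.22 TPM (log2 fold change -4.64 ± 0.27, SE, adjusted p = 1.7e-06). EGR4, another early growth response factor, went from 10.3, 12.2, 20.9 and 11.3 TPM to 0.39, 0.03, 0.59 and 0.4 TPM, with cow 12H-6314 at 12 h within the saline range.

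EDN2, the vasoconstrictor endothelin 2, was at 6.19, 13.6, 21.1 and 7.47 TPM at 4 h and 0.71, 0.36, 0.08 and 0.57 TPM at 12 h, against 0 in 3 of the 4 saline cows. XIRP1, an actin-binding repeat protein of striated muscle, was at 0.46, 0.2, 0.15 and 0.41 TPM in saline, 79.8, 177, 140.3 and 105 TPM at 4 h and 6.4, 3.25, 3.1 and 9.11 TPM at 12 h. Its 12 h cows were far below the 4 h cows and all above saline. The cell cycle inhibitor CDKN1A was at 43.9, 56.9, 76.6 and 84.7 TPM, 275, 440.3, 343 and 363 TPM and 141, 103, 107 and 121 TPM in saline, 4 h and 12 h cows, so that the 3 groups did not overlap. PLK3, a stress kinase, and TIMP3, an inhibitor of metalloproteinases, had log2 fold changes between the times of -2.49 and -1.04. HAS2, which makes hyaluronan, had one of -1.43 with overlapping TPM, and was not called without cow 4H-5341, 4H-6456, 12H-5266 or 12H-7382 (adjusted p = 0.054 to 0.092). The 6 genes that partly returned from a decrease included DEF6, TM4SF18 and FEN1, with log2 rises of 0.65, 0.91 and 0.40. Of these 3, TM4SF18 alone was called without cows 4H-6455 and 12H-6314 (adjusted p = 0.0073).

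Reversal was seen in 99 genes that had risen and 41 that had fallen by 4 h. TET3 (chr11:10561669-10666478), a dioxygenase that oxidizes methylcytosine, was at 1.68, 1.07, 1.21 and 1.57 TPM in saline, 6.69, 15.9, 5.78 and 10.5 TPM at 4 h and 0.31, 0.89, 0.49 and 0.37 TPM at 12 h. The 4 h cows were the highest and the 12 h cows the lowest, with no overlap among the 3 groups. The log2 difference from saline was 2.7 ± 0.32 (SE, adjusted p = 0.00027) at 4 h and -1.17 ± 0.35 (SE, adjusted p = 0.014) at 12 h. TIAM1, an activator of the GTPase Rac1, went from 71.2, 95.6, 34.3 and 63.6 TPM to 3.74, 2.33, 6.83 and 2.87 TPM, with 6.08, 14.6, 13 and 12.5 TPM in saline. TAF4B, a subunit of a gonadal form of TFIID, and FAM222A fell, with log2 fold changes of -2.69 and -3.00 between the times.

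Other reversing genes included the redox gene SRXN1 and the receptor gene ACVR1B. Reversal was seen in 0.97% of all genes tested. SRXN1, which repairs oxidized peroxiredoxins and is a target of NRF2, was at 34.3, 37.2, 33.1 and 42.1 TPM, 65.5, 110.0, 62.1 and 81.9 TPM and 12.9, 9.87, 7.98 and 8.68 TPM in saline, 4 h and 12 h cows. The order of the groups was complete, and the change between the times was -2.73 ± 0.21 (SE, adjusted p = 9.5e-06) on the log2 scale. The activin receptor ACVR1B went from 26.9, 33.6, 19 and 24.3 TPM to 4.21, 3.45, 5.15 and 4.05 TPM, below every saline cow. GATA6, a transcription factor of steroidogenic cells, NFKB1, a subunit of NF-kB, and the chaperone DNAJB1 had log2 fold changes of -1.10, -1.18 and -0.96. NFKB1 was called against saline at 12 h by a narrow margin (log2 difference -0.42 ± 0.16 (SE, adjusted p = 0.05)).

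Reversal of an early decrease had its largest rise in SHF (chr10:65243731-65262569), an SH2 adaptor of growth factor receptors. SHF was at 12.1, 11.7, 16 and 14.1 TPM in saline, 7.44, 8.12, 9.39 and 7.85 TPM at 4 h and 84.7, 108, 104 and 108 TPM at 12 h, and the smallest 12 h value was several times the largest value of either other group. The log2 rise was 3.93 ± 0.15 (SE, adjusted p = 3.6e-08). ANO3, a membrane protein of the anoctamin family, went from 0.29, 0.43, 0.17 and 0.4 TPM to 3.26, 4.2, 1.74 and 3.84 TPM. APCDD1, an inhibitor of WNT signalling, was at 60.9, 29.1, 48.1 and 41.9 TPM in saline, 20.4, 20.3, 17.5 and 20.5 TPM at 4 h and 86.1, 51.5, 84 and 74.8 TPM at 12 h. The 12 h cow with the least APCDD1, cow 12H-6314, overlapped the saline range. EID2, a repressor of EP300, and TEX9 rose by 2.15 and 1.77 between the times.

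Persisting changes included large early increases. GAL (chr29:46104267-46110100), which encodes the neuropeptide galanin, was at 1.31, 1.24, 1.92 and 1.28 TPM in saline, 66, 176, 222 and 182 TPM at 4 h and 273, 101, 199.6 and 244 TPM at 12 h. The times overlapped, and the log2 difference between them was 0.63 ± 0.38 (SE, adjusted p = 0.18). Without cows 4H-6455 and 12H-6314 it was 1.10 with an adjusted p of 0.017, and without cow 12H-6314 alone 0.91 with an adjusted p of 0.037, so that GAL then counted as still rising. CTLA4, an inhibitory receptor of T cells, was at 0 to 0.18 TPM in saline, 10.2, 12.9, 8.53 and 11.2 TPM at 4 h and 7.26, 5.18, 12 and 11.7 TPM at 12 h. GPRC5A, an orphan receptor induced by retinoic acid, and the collagenase MMP1 were at 9.22 to 37.3 and 3.31 to 11.8 TPM at 12 h, with differences between the times of -0.18 ± 0.38 (SE, adjusted p = 0.73) and 0.25 ± 0.46 (SE, adjusted p = 0.67) that did not pass the test.

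Of the lipid genes, PLIN2, the coat protein of lipid droplets, was at 1804, 2579, 2484 and 2139 TPM at 4 h and 1986, 1486, 1888 and 2335 TPM at 12 h. These ranges overlapped, and the log2 difference of 0.06 ± 0.21 (SE, adjusted p = 0.83) turned negative on log2(TPM + 1), at -0.23, without a call on either scale. LCAT, which esterifies cholesterol on lipoproteins, was at 34.7 to 46.9 TPM at 4 h and 32.6 to 48.6 TPM at 12 h. FGF2, an angiogenic growth factor, had log2 differences from saline of 2.92 at 4 h and 2.18 at 12 h. It was called as a decrease between the times when log2(TPM + 1) was tested (-1.02, adjusted p = 0.038) and without cow 12H-5266 (-1.15, adjusted p = 0.046), so that its persistence depended on the setting. Persisting decreases were largest in ARHGAP20, APLNR, E2F2 and RAB3A. APLNR, the apelin receptor of endothelial cells, was at 36, 17.6, 28.5 and 20.7 TPM in saline, 2.69, 4.32, 4.02 and 8.48 TPM at 4 h and 4.47, 10.4, 5.38 and 7.26 TPM at 12 h. It was called as higher at 12 h than at 4 h with the length trend removed (0.97, adjusted p = 0.028) and without cow 4H-6456 (1.15, adjusted p = 0.0091). KDR, the main VEGF receptor of endothelium, was at 108, 80.9, 92.4 and 81.8 TPM, 54.1, 44, 37.3 and 61.2 TPM and 30.2, 40.7, 35.4 and 27.2 TPM in the 3 groups, with a difference between the times of -0.28 ± 0.14 (SE, adjusted p = 0.12) that took the opposite sign once the length trend was removed (0.29, not called). KDR was called as a decrease when log2(TPM + 1) was tested (-0.54, adjusted p = 0.018) and without cow 4H-6455 (-0.37, adjusted p = 0.046).

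Extended increases were those that went on growing after 4 h. CD24 (chr2:117785379-117787180), a surface glycoprotein of immune and epithelial cells, was at 0.47, 0.44, 0.5 and 0.37 TPM in saline, 8.02, 15.2, 6.76 and 7.71 TPM at 4 h and 111, 102, 91.1 and 117 TPM at 12 h, a further 13.6-fold rise between the times (log2 fold change 3.76 ± 0.23, SE, adjusted p = 2.5e-06). No groups overlapped. SERPINA14, the uterine serpin of ruminants, was at 2.67, 2.65, 3.29 and 7.72 TPM in saline and went from 8.59, 64.3, 26.4 and 46.3 TPM to 499, 497, 415 and 472 TPM. Its 4 h cows spread widely and its 12 h cows lay close together. OPALIN, known from oligodendrocyte myelin, went from 1, 1.02, 1.96 and 2.33 TPM to 38.2, 31, 36.3 and 34.1 TPM (log2 fold change 4.78 ± 0.30, SE, adjusted p = 2.5e-06), and MEPE, a secreted phosphoprotein of bone, from 0.22, 2.26, 0.61 and 0.21 TPM to 12, 39.9, 8.92 and 31.4 TPM (log2 fold change 4.99 ± 0.68, SE, adjusted p = 0.00012).

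SPP1, the secreted phosphoprotein osteopontin, was at 151, 44.4, 114 and 74.7 TPM in saline, 537, 1158, 580.1 and 456 TPM at 4 h and 1425, 1540, 2021 and 2116 TPM at 12 h. All 12 h cows exceeded all 4 h cows (log2 fold change 1.66 ± 0.37, SE, adjusted p = 0.0032). TGFB1, the cytokine TGF-beta 1, rose by a further 1.03 and RGS1, an inhibitor of G protein signalling, by 1.19, both with overlapping TPM between the times. The growth arrest genes GADD45A and CDKN1B rose by 1.3 and 0.83, and the redox protein thioredoxin (TXN) by 1.0, each without overlap in TPM.

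The 153 extended decreases included 2 of 15 steroidogenesis genes and 6 of 28 luteal hormone receptors and ovarian transcription factors. Among all genes tested 2.01% were extended, counting both directions. HSD3B1 (chr3:23706733-23717051), the enzyme that forms progesterone from pregnenolone, was at 4090, 4510, 6917 and 7144 TPM in saline, 3379, 3313, 3470 and 2775 TPM at 4 h and 614, 432, 476 and 576 TPM at 12 h. The step between the times was -2.37 ± 0.24 (SE, adjusted p = 2.4e-05), beside -0.78 ± 0.23 (SE, adjusted p = 0.041) between saline and 4 h. PTGFR, the PGF2α receptor, went from 958, 1392, 629 and 1098 TPM to 198, 253, 244 and 185 TPM (log2 fold change -1.95 ± 0.25, SE, adjusted p = 8e-05). VEGFA, the angiogenic factor that maintains luteal capillaries, was at 198, 176, 252 and 245 TPM, 103, 139, 120.1 and 126 TPM and 23.5, 18.4, 27.2 and 17.6 TPM in saline, 4 h and 12 h cows, and its receptor FLT1 had a log2 fold change of -1.02 between the times.

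The log2 fold change between the times was -2.21 for the cholesterol exporter ABCA1, -1.79 for aromatase (CYP19A1) and -1.47 for the transferrin receptor TFRC. None of these overlapped between the times in TPM. The 3 other extended decreases with the largest steps were ADGRF2, an adhesion receptor, at -2.62, the scaffold protein USH1C at -2.46 and PPP1R9A, a regulator of protein phosphatase 1 at the cytoskeleton, at -2.23.

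Among increases that only began after 4 h, GZMA (chr20:24009814-24018787), a protease of cytotoxic lymphocyte granules, was largest. It was at 2.02, 6.36, 1.44 and 2.31 TPM in saline, 1.17, 3.27, 1.59 and 2.89 TPM at 4 h and 32.3, 17.1, 55.1 and 104 TPM at 12 h, and cow 12H-7475 was highest. The log2 rise was 4.86 ± 0.65 (SE, adjusted p = 0.00012). ADM, the vasodilator adrenomedullin, was at 135, 115, 112 and 179 TPM at 4 h and 684, 740.4, 532 and 666 TPM at 12 h, with 249, 167, 192 and 135 TPM in saline. All 12 h cows exceeded all others (log2 fold change 2.55 ± 0.20, SE, adjusted p = 9.5e-06). The secreted phospholipase PLA2G2D4, the zinc-sensing receptor GPR39 and the transcription factor HAND2 rose by 4.84, 3.53 and 3.02. SLC2A5, a fructose transporter, was at 3.84, 4.97, 0.18 and 5.46 TPM at 12 h, with cow 12H-7382 at the 4 h level, and its log2 rise was 4.40 ± 1.26 (SE, adjusted p = 0.013).

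Decreases that only began after 4 h included PRUNE2, CAPN14 and NT5DC3. PRUNE2 was at 33.3, 32.8, 6.27 and 22.9 TPM at 4 h, with cow 4H-6455 lowest, and at 0.86, 0.57, 1.19 and 0.58 TPM at 12 h. Without cows 4H-6455 and 12H-6314 the log2 fold change of PRUNE2 was -4.71. Leaving out the lowest 4 h cow raises the 4 h mean, so this value is no check of the decrease. The protease CAPN14 and NT5DC3, of the nucleotidase family, had log2 fold changes of -4.51 and -3.92. NF1, the Ras GTPase-activating protein neurofibromin, was at 6.85, 7.07, 12.8 and 11.4 TPM in saline, 9.97, 13.8, 2.42 and 7.77 TPM at 4 h and 0.44, 0.96, 0.61 and 0.47 TPM at 12 h (log2 fold change -3.49 ± 0.48, SE, adjusted p = 0.00014). Here too cow 4H-6455 was the lowest 4 h cow.

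The genes were next grouped by function, in lists of known pathways and cell types. A list is described by how many of its tested members rose or fell between 4 h and 12 h, beside the 22.5% and 24.3% of all genes, and by its median log2 fold change, beside 0.02 for all genes. Of the immediate early transcription factors, 16 of 28 fell and 2 rose (median -0.93), and 17 had been higher at 4 h than in saline (8.65% of all genes). The 2 that rose were KLF2, at 1.66, and the AP-1 subunit JUN, at 0.60 and with an adjusted p of 0.050 without cow 12H-5266, while FOSB, EGR4, EGR3 and BHLHE40 were among the largest decreases. NR4A3, an orphan nuclear receptor, was at 3.4, 7.65, 2.2 and 17 TPM in saline, 11.7, 11, 8.97 and 7.84 TPM at 4 h and 0.82, 0.58, 1.02 and 1.51 TPM at 12 h, and counted as a decrease that only began after 4 h (log2 fold change -3.10 ± 0.57, SE, adjusted p = 0.00095).

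**Figure D4:**
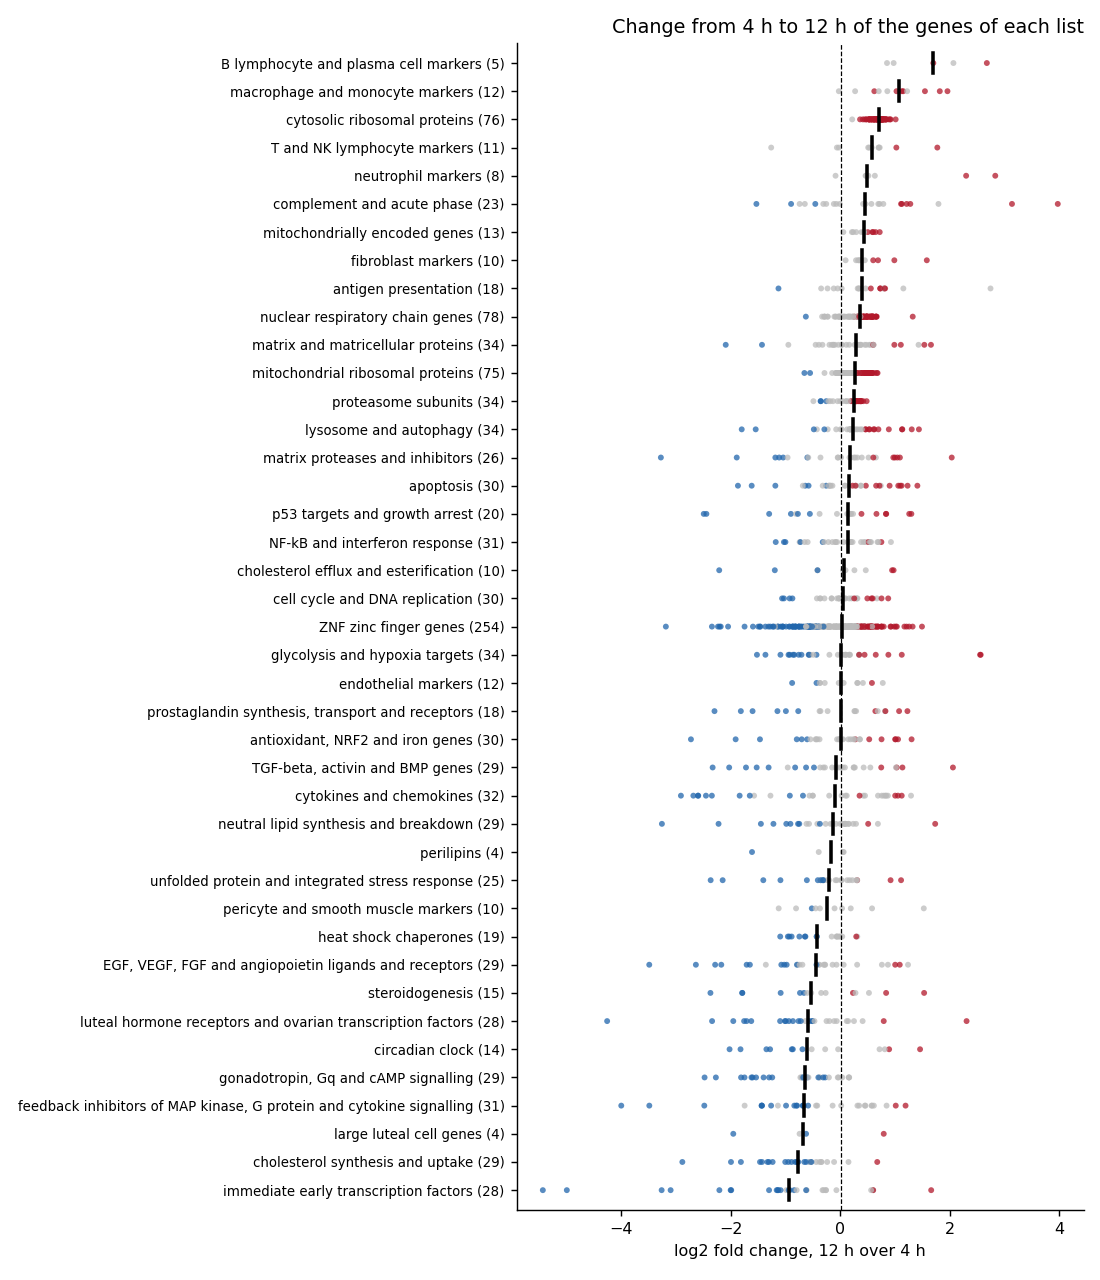
Log2 fold change from 4 h to 12 h (horizontal axis) of each tested gene of 41 lists, with the number of tested genes in parentheses, lists ordered by their median (black bar) and the median of all genes as the dashed line. Red genes rose and blue genes fell by the test, and gray genes were not called. Immediate early transcription factors had the lowest median, -0.93, and cytosolic ribosomal proteins, at 0.71, were almost all red.

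Feedback inhibitors of MAP kinase, G protein and cytokine signalling fell in 15 of 31 (median -0.66), and the 2 that rose were RGS1 and the phosphatase DUSP10, at 1.01. SPRY4, an inhibitor of receptor tyrosine kinase signalling, was at 22.5, 11, 20.5 and 20.5 TPM in saline, 11.9, 19.7, 7.28 and 10.4 TPM at 4 h and 1.35, 3.82, 0.8 and 1.42 TPM at 12 h (log2 fold change -2.48 ± 0.41, SE, adjusted p = 0.00043). Of the gonadotropin, Gq and cAMP signalling genes, 17 of 29 fell and 0 rose (median -0.64). At 4 h 1 had been called lower and 3 higher than saline, beside 5.59% and 8.65% of all genes. ITPR1, a calcium channel opened by inositol trisphosphate, went from 69, 58.9, 18.7 and 42.1 TPM to 5.57, 8.67, 7.9 and 5.72 TPM (log2 fold change -2.48 ± 0.30, SE, adjusted p = 7e-05). PLCB1, the phospholipase C that Gq activates, went from 14.9, 15.6, 9.66 and 22.1 TPM to 2.91, 4.77, 3.47 and 3.4 TPM, and adenylate cyclase ADCY3, the related channel ITPR2 and the protein kinase A subunit PRKAR2A had log2 fold changes of -1.75, -1.54 and -1.60. None of these 5 genes overlapped between the times.

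Of the luteal hormone receptors and ovarian transcription factors, 16 of 28 fell and 2 rose (median -0.60). NR5A1, which drives steroidogenic gene expression, was at 167, 129, 178 and 125 TPM at 4 h and 61.5, 62.5, 56 and 67.8 TPM at 12 h (log2 fold change -1.0 ± 0.14, SE, adjusted p = 0.00013), and GHR, the growth hormone receptor, had a log2 fold change of -1.62. FSHR, the receptor of follicle-stimulating hormone, went the other way, from 1.18, 1.82, 1.44 and 3.26 TPM to 5.57, 10.3, 5.81 and 7.56 TPM (log2 fold change 2.31 ± 0.32, SE, adjusted p = 0.00015). Of the steroidogenesis genes, 6 of 15 fell and 3 rose (median -0.53). STAR, which brings cholesterol into mitochondria, was at 5318, 8752, 6052 and 7527 TPM in saline, 5350, 2919, 4750 and 3667 TPM at 4 h and 893, 426, 1551 and 1027 TPM at 12 h. The 12 h cows lay below all others, with cow 12H-6314 lowest, and the log2 decrease was -1.79 ± 0.37 (SE, adjusted p = 0.0018). CYP11A1 and FDXR, which supplies it with electrons, had log2 fold changes of -0.73 and -1.09, and CYP11A1 was not called without cow 4H-4291 (-0.68, adjusted p = 0.063) or without cow 4H-5341 (-0.68, adjusted p = 0.063). The mitochondrial translocator protein TSPO rose by 0.84. Oxytocin (OXT), a peptide hormone of large luteal cells, was at 10340, 11840, 9270 and 9454 TPM at 4 h and 18730, 9492, 12490 and 16540 TPM at 12 h, overlapping ranges with a log2 difference of 0.79 ± 0.27 (SE, adjusted p = 0.029) that was not called without any 1 of 5 cows (4H-4291, 4H-6455, 4H-6456, 12H-5266 or 12H-7475, adjusted p = 0.057 to 0.10).

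Cholesterol synthesis and uptake genes fell in 19 of 29 (median -0.77). At 4 h none had been called lower than saline, beside 5.59% of all genes. In this list the 4 h and saline cows had mean log2 CPM of 8.47 to 8.72 and 8.30 to 8.67, and the 12 h cows of 7.12 to 8.06, with cow 12H-6314 lowest. SQLE, a synthetic enzyme, was at 434, 538, 463 and 407 TPM in saline, 568, 599, 446 and 479 TPM at 4 h and 166, 108, 214 and 142 TPM at 12 h (log2 fold change -1.43 ± 0.21, SE, adjusted p = 0.00025). The synthetic enzyme LSS, the sterol transporter STARD4 and SREBF2, the transcription factor of the pathway, had log2 fold changes of -1.3, -2.88 and -0.62. With the length trend removed SREBF2 was at -0.26 and was not called (adjusted p = 0.094). NPC2, a lysosomal cholesterol carrier, was the 1 gene of the list that rose, from 159, 155, 170.1 and 178 TPM to 207, 244, 218 and 204 TPM (log2 fold change 0.68 ± 0.11, SE, adjusted p = 0.00047).

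Cholesterol efflux and esterification genes rose in 2 and fell in 3 of 10 (median 0.07, and -0.21 on log2(TPM + 1)). The members that rose were APOA1, the main protein of high density lipoprotein, which went from 6634, 7585, 8608 and 9075 TPM to 15740, 14000, 10440 and 11740 TPM, and MYLIP, a ubiquitin ligase, at 0.95. Of the neutral lipid genes, 9 of 29 fell and 2 rose (median -0.14). LPIN1, a phosphatidate phosphatase, was at 81.1, 118, 148 and 53.8 TPM at 4 h and 8.54, 6.05, 14.7 and 5.36 TPM at 12 h (log2 fold change -3.26 ± 0.41, SE, adjusted p = 8.5e-05). ACSL4, which activates arachidonic acid, had a log2 fold change of -2.22, and the fatty acid carrier FABP5 rose by 1.73. Of the 4 perilipins tested (median -0.17, and 0.09 without cows 4H-6455 and 12H-6314), PLIN4 fell, at -1.61. PLIN1 and PLIN3 had differences of 0.05 ± 0.18 (SE, adjusted p = 0.85) and -0.39 ± 0.25 (SE, adjusted p = 0.21), the latter called on log2(TPM + 1) (-0.59, adjusted p = 0.044), and the hormone-sensitive lipase gene LIPE one of 0.03 ± 0.29 (SE, adjusted p = 0.93).

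Growth factors of the EGF, VEGF, FGF and angiopoietin families fell in 11 of 29 and rose in 2 (median -0.43). The EGF receptor ligand EREG was at 32.5, 26.1, 75.1 and 41.7 TPM in saline, 65.9, 93.5, 30.7 and 62.3 TPM at 4 h and 5.28, 3.2, 5.43 and 4.29 TPM at 12 h (log2 fold change -3.49 ± 0.41, SE, adjusted p = 5.4e-05), and TGFA, another ligand of that receptor, had a log2 fold change of -2.64. VEGFB rose by 1.0, from 26.9, 23.7, 34.9 and 28.9 TPM to 46.8, 53.3, 41 and 49.2 TPM, while VEGFA fell. In the TGF-beta, activin and BMP list, 8 of 29 fell and 4 rose (median -0.07, and 0.02 with the length trend removed). TGFBR1, a receptor for TGF-beta, went from 22.2, 34.5, 15.7 and 28.8 TPM to 2.95, 7.32, 5.53 and 4.81 TPM (log2 fold change -2.03 ± 0.24, SE, adjusted p = 5.4e-05) whereas its ligand TGFB1 rose.

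Prostaglandin genes rose in 4 and fell in 6 of 18 (median 0.01, and -0.18 on log2(TPM + 1)). PTGES2, a prostaglandin E synthase, and AKR1B1, which can form PGF2α, rose by 1.23 and 0.64. SLCO2A1, the prostaglandin transporter, went from 44, 45.5, 27.6 and 49 TPM to 8.76, 9.21, 8.85 and 11.8 TPM (log2 fold change -1.81 ± 0.18, SE, adjusted p = 2e-05). In the glycolysis and hypoxia list, 7 of 34 rose and 12 fell (median 0.02, and -0.26 on log2(TPM + 1)). The neuronal enolase ENO2 rose from 2.15, 0.86, 1.31 and 0.64 TPM to 5.77, 4.88, 5.2 and 5.46 TPM.

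Cytokines and chemokines fell in 10 of 32 and rose in 4 (median -0.09), after 17 had been higher at 4 h than in saline. Their median difference from saline was 1.53 at 4 h and 1.22 at 12 h. LIFR, a receptor of the interleukin 6 family, went from 7.72, 7.66, 3.38 and 5.65 TPM to 0.76, 0.82, 0.89 and 0.67 TPM (log2 fold change -2.68 ± 0.24, SE, adjusted p = 1.3e-05), and its partner IL6ST and the transducer STAT3 had log2 fold changes of -2.34 and -1.0. The NF-kB and interferon list had 2 rises and 5 decreases among 31 (median 0.13, and -0.09 on log2(TPM + 1)). Antigen presentation genes rose in 5 and fell in 1 of 18 (median 0.40, with 1 rise and 4 decreases on log2(TPM + 1)), and complement and acute phase genes rose in 6 and fell in 3 of 23 (median 0.46). C1QB, a chain of complement C1q made by macrophages, went from 43.5, 48.9, 42.4 and 80.6 TPM to 91.4, 143, 100.1 and 99.2 TPM (log2 fold change 1.28 ± 0.35, SE, adjusted p = 0.011), and was not called without cows 4H-6455 and 12H-6314 (1.10, adjusted p = 0.06).

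Matrix proteases and inhibitors were split, with 6 rises and 6 decreases among 26 (median 0.18, and -0.09 on log2(TPM + 1)). MMP14, a membrane-bound metalloproteinase, went from 134, 163, 169 and 172 TPM to 244, 315, 256 and 309 TPM (log2 fold change 1.09 ± 0.18, SE, adjusted p = 0.00039). The lysosomal protease CTSL was at 8.72, 3.73, 5.96 and 11 TPM at 4 h and 16.6, 40.8, 8.68 and 34.5 TPM at 12 h, ranges that overlapped (log2 fold change 2.04 ± 0.47, SE, adjusted p = 0.0038). Matrix and matricellular proteins rose in 5 and fell in 2 of 34 (median 0.29), a median that was -0.06 on log2(TPM + 1) and -0.12 without cows 4H-6455 and 12H-6314. CCN2, the matricellular connective tissue growth factor, was at 127, 148, 229 and 166 TPM at 4 h and 204, 742, 309 and 413 TPM at 12 h, with cow 12H-6314 highest (log2 fold change 1.53 ± 0.37, SE, adjusted p = 0.0049).

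Apoptosis genes rose in 11 and fell in 6 of 30 (median 0.16, with a sign that changes on other scales). Of the rises 10 only began after 4 h, beside 2042 of the 3252 rises of all genes. The median of the list was -0.09 on log2(TPM + 1), with 7 rises and 10 decreases, and -0.03 without cows 4H-6455 and 12H-6314. The mitochondrial pore protein BAX was at 59.3, 42.7, 45.5 and 45.1 TPM in saline, 45.9, 41.6, 31.4 and 39.3 TPM at 4 h and 71.1, 88.8, 71.8 and 74.8 TPM at 12 h (log2 fold change 1.23 ± 0.11, SE, adjusted p = 1.5e-05). FAS, a death receptor, went from 2.97, 4.05, 2.93 and 3.66 TPM to 6.81, 7.73, 7.84 and 8.06 TPM (log2 fold change 1.41 ± 0.15, SE, adjusted p = 3.5e-05). Its adaptor FADD and the initiator caspase CASP9 rose by 0.72 and 1.09. XIAP, an inhibitor of caspases, went from 9.77, 13.4, 7.38 and 9.35 TPM to 1.65, 3.09, 1.88 and 2.18 TPM (log2 fold change -1.87 ± 0.19, SE, adjusted p = 2.6e-05). BAX, FAS and CASP9 rose on log2(TPM + 1) as well, by 0.94, 0.97 and 0.73. Among p53 targets and growth arrest genes 6 rose and 6 fell of 20 (median 0.15, and -0.11 on log2(TPM + 1)), with ZMAT3, a p53-induced RNA-binding protein, at -2.44.

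Stress response genes are given next. Heat shock chaperones fell in 9 and rose in 1 of 19 (median -0.43), including mitochondrial HSPA9 at -0.75. Unfolded protein and integrated stress response genes fell in 9 and rose in 3 of 25 (median -0.20). Sensors of the endoplasmic reticulum were among the decreases: ERN1 went from 10.6, 14.5, 6.17 and 8.33 TPM to 1.7, 1.37, 1.75 and 1.45 TPM (log2 fold change -2.37 ± 0.34, SE, adjusted p = 0.0002), and ATF6 and EDEM1, which helps dispose of misfolded proteins, had log2 fold changes of -2.15 and -1.41. DDIT3, a transcription factor of the integrated stress response, rose from 20.3, 19.1, 27.6 and 21.1 TPM to 29.9, 42.3, 36.1 and 41.7 TPM (log2 fold change 1.11 ± 0.15, SE, adjusted p = 0.00013).

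Antioxidant, NRF2 and iron genes rose in 7 and fell in 6 of 30 (median 0.01, and -0.27 on log2(TPM + 1)). Ferritin genes rose: FTL, the ferritin light chain, went from 943, 961, 1051 and 1077 TPM to 2141, 2007, 1963 and 2064 TPM (log2 fold change 1.3 ± 0.15, SE, adjusted p = 5.3e-05) and FTH1, the heavy chain, from 3224, 3079, 2985 and 3402 TPM to 5184, 5465, 5243 and 5164 TPM (log2 fold change 1.01 ± 0.13, SE, adjusted p = 8.3e-05), with no overlap. TFRC, which imports iron, was among the extended decreases. Lysosome and autophagy genes rose in 12 and fell in 4 of 34 (median 0.23, and -0.04 on log2(TPM + 1)). Of the rises 11 only began after 4 h, beside 2042 of the 3252 rises of all genes. The protease CTSH went from 77.1, 74.6, 87 and 84.6 TPM to 160.2, 178, 156 and 225 TPM (log2 fold change 1.44 ± 0.18, SE, adjusted p = 8.6e-05), the autophagy protein WIPI1 rose by 1.3 and the proton pump subunit ATP6V0D1 by 1.13.

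Of the circadian clock genes, 7 of 14 fell and 2 rose (median -0.61). None had been called at 4 h against saline, beside 14.2% of all genes. PER2, a repressor of the clock, was at 2.15, 1.87, 1.1 and 1.31 TPM in saline, 1.3, 1.37, 1.85 and 1.82 TPM at 4 h and 0.14, 0.52, 0.37 and 0.26 TPM at 12 h (log2 fold change -2.02 ± 0.34, SE, adjusted p = 0.00047). The repressors CRY1 and CRY2 and the activator CLOCK had log2 fold changes of -0.87, -1.35 and -1.82. NR1D1, a nuclear receptor that represses clock genes, rose from 4.54, 4.88, 6.77 and 6.3 TPM to 7.76, 15.8, 16.6 and 11.6 TPM (log2 fold change 1.46 ± 0.22, SE, adjusted p = 0.00024), and NPAS2, a CLOCK homolog, was at 654, 563, 719 and 633 TPM at 4 h and 1024, 1027, 1036 and 854 TPM at 12 h (log2 fold change 0.89 ± 0.14, SE, adjusted p = 0.00032). The hour of day at which each ovary was removed is not given in the labels, and its part in these differences was not tested. Cell cycle and DNA replication genes rose in 6 and fell in 4 of 30 (median 0.05, and -0.19 without cows 4H-6455 and 12H-6314 and -0.19 on log2(TPM + 1)). MKI67, a marker of proliferating cells, went from 7.69, 6.86, 2.79 and 6.01 TPM to 1.98, 4.08, 2.61 and 1.94 TPM (log2 fold change -0.87 ± 0.26, SE, adjusted p = 0.014), and with the length trend removed the difference was -0.19 (adjusted p = 0.52). MKI67 also missed the threshold without cow 4H-4291 (adjusted p = 0.050).

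The cytosolic and mitochondrial ribosomal protein genes were examined next. Of the cytosolic ribosomal protein genes, 75 of 76 rose and none fell (median 0.71), and their median transcript length was 686 bases. None had been called at 4 h against saline, beside 14.2% of all genes. On log2(TPM + 1) 55 rose (median 0.42), and with the length trend removed 71 (median 0.51). RPLP2 went from 844, 698, 899.6 and 745 TPM to 1132, 1212, 1128 and 1225 TPM and RPL39 from 775, 628, 828 and 712 TPM to 1142, 1315, 1365 and 1085 TPM. Mitochondrial ribosomal proteins rose in 35 and fell in 2 of 75 (median 0.27), but on log2(TPM + 1) the counts were 7 and 14 (median -0.02). MRPL27 rose, at 0.67, and MRPL15 fell, at -0.65.

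Nuclear respiratory chain genes rose in 45 and fell in 1 of 78 (median 0.36), against 13 and 13 on log2(TPM + 1) (median 0.06). The complex I subunit NDUFA2 rose by 0.65, and the longer core subunit NDUFS1 was the 1 member that fell, at -0.63. Proteasome subunits rose in 18 and fell in 3 of 34 (median 0.24), and on log2(TPM + 1) 0 rose and 10 fell (median -0.04). Of the 13 mitochondrially encoded genes, 5 rose (median 0.43), with none called on log2(TPM + 1), and these genes took 8.93% ± 1.01 of counts at 4 h and 11.6% ± 3.04 at 12 h (SD, n = 4, p = 0.143 by an exact two-sided permutation test). ZNF zinc finger genes rose in 52 and fell in 64 of 254, near the shares of all genes (median 0.02, and -0.22 on log2(TPM + 1)).

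Markers of cells other than luteal cells were set beside these results. Macrophage and monocyte markers rose in 7 of 12 and none fell (median 1.07), and their mean log2 CPM was 3.74 to 4.66 at 4 h and 4.82 to 5.31 at 12 h. In saline it was 3.2 to 4.77, and cow C-6464, the highest, lay just below the lowest 12 h cow. TYROBP, an adaptor of myeloid receptors, went from 18.6, 22.8, 26.6 and 33.4 TPM to 56.2, 79.9, 84.6 and 102 TPM (log2 fold change 1.96 ± 0.30, SE, adjusted p = 0.00027), and AIF1 and FCER1G, both expressed in macrophages, rose by 1.82 and 1.55. Without cows 4H-6455 and 12H-6314, 4 macrophage markers rose. Neutrophil markers rose in 2 of 8 (median 0.50), with ranges of 0.81 to 2.10 and 1.64 to 2.7 that overlapped. S100A12, a calcium-binding protein of neutrophils, went from 12.5, 19.2, 8.09 and 33.1 TPM to 47.8, 55.4, 169.8 and 147 TPM (log2 fold change 2.83 ± 0.54, SE, adjusted p = 0.0012), and S100A9, of the same cells, was called at 4 h and 12 h against saline but not between them (log2 fold change 0.48 ± 0.46, SE, adjusted p = 0.42), except without cow 4H-6456 (1.22, adjusted p = 0.018).

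T and NK lymphocyte markers rose in 2 of 11 (median 0.58), with ranges of 1.21 to 1.75 at 4 h, 1.66 to 2.29 at 12 h and 1.24 to 3.31 in saline. The rises were in the granule protein NKG7, at 1.77, and in CD8A, at 1.02, whose 12 h values of 3.41, 2.42, 2.58 and 2.3 TPM lay within the saline range. CD8A was not called without cow 4H-4291, 4H-5341, 4H-6455, 12H-5266 or 12H-7382 (adjusted p = 0.053 to 0.091). B lymphocyte and plasma cell markers rose in 2 of 5. Fibroblast markers rose in 4 of 10 (median 0.40), but none was called without cows 4H-6455 and 12H-6314. Endothelial markers rose in 1 and fell in 2 of 12 (median 0.02, and -0.27 on log2(TPM + 1)). The rise was in EMCN, which returned from an early decrease, and the decreases were in TEK and PECAM1. PECAM1, a junction protein of endothelium, returned from 108, 97.5, 85.2 and 113 TPM at 4 h to 36.8, 79.5, 37.5 and 35.9 TPM at 12 h, with cow 12H-6314 at 79.5 TPM. Pericyte and smooth muscle markers fell in 1 of 10 (median -0.24), a median that took the opposite sign, at 0.08, with the length trend removed, where 0 fell. Beside these, the 1 erythrocyte marker tested was not called, and of the 4 large luteal cell genes 2 fell and 1 rose. The part of cell composition in the gene differences above was not tested.

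**Figure D5:**
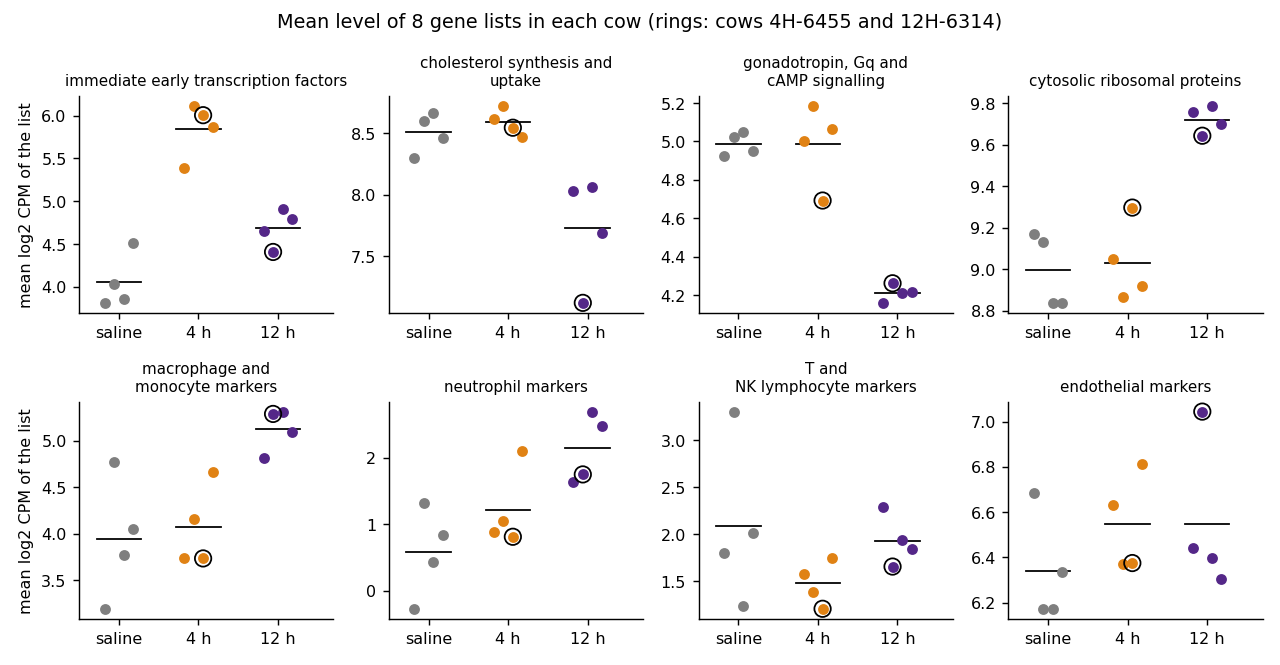
Mean log2 CPM of the tested genes of 8 lists (vertical axes, each on its own scale) in each cow, with saline in gray, 4 h in orange and 12 h in purple, the black line marking the mean and a ring marking cows 4H-6455 and 12H-6314. Macrophage and monocyte markers lay at 3.2 to 4.77 in saline, 3.74 to 4.66 at 4 h and 4.82 to 5.31 at 12 h. Endothelial markers lay at 6.37 to 6.81 at 4 h and 6.31 to 7.04 at 12 h, with cow 12H-6314 highest.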

How the data were processed

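RNA-seq of whole corpora lutea from 12 cows was analysed, 4 per group as the labels give them, and each cow is 1 replicate. Per the submitters' processing notes, the authors used STAR 2.5 and RSEM 1.3 on the ARS-UCD1.2 assembly, and their further settings and the strandedness of counting are not given in the sources used here. The deposited tables hold 1 row per Ensembl gene. The authors' RSEM run gave each gene an expected count, with no scaling between libraries, which was rounded to whole numbers here for the tests. The deposited TPM value was scaled by the authors to transcript length and to the same total in every library, and served for levels and for 1 kind of alternative. The deposited FPKM value was not used. Of 27270 genes, 7506 have no symbol and are counted but not named. Reads that fit several genes were divided among them by RSEM, so that close paralogs may share counts. TPM sums to the same total in every library, so that a rise of abundant short transcripts lowers the rest.

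The 14481 genes that reached 10 counts in 4 or more of the 12 libraries were fitted together in edgeR 4.0.16 (R 4.3.3) with TMM scaling and the quasi-likelihood F test, with all 3 groups in the model and no covariates. The contrasts were 12 h against 4 h, 4 h against saline and 12 h against saline, with Benjamini-Hochberg adjustment over all genes and a threshold of 0.05. A standard error is the log2 fold change divided by the square root of F. Cow numbers are not shared between groups and pair no animals. Log2 CPM used a prior count of 2. The calls of the 3 contrasts gave each gene its course. Alternatives were DESeq2 1.42.0, RLE scaling, no count minimum, a minimum of 50, limma 3.58.1 on log2(TPM + 1) and log2(TPM + 0.1), the 13 mitochondrially encoded genes left out, the 8 treated libraries alone, and each library left out. A per-library offset for transcript length (natural spline, 5 degrees of freedom) and the omission of cows 4H-6455 and 12H-6314 together were added after seeing the data. The gene fit was tested on simulated counts.

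The comparison, gene lists and tests were chosen with earlier results of these data known. Genes were named by rule: the 10 largest rises and 10 largest decreases between the times (mean of at least 5 CPM in the highest group, a symbol used once, no overlap in CPM), the 4 largest per course and direction, up to 6 members per list by smallest p plus up to 2 in the less frequent direction, all members of lists with up to 8, and the perilipins, STAR, CYP11A1, HSD3B1 and LIPE. Some genes that the rule picks are not reported here. Library-level values were compared with exact two-sided permutation tests (SciPy 1.17.1). Coordinates are those of ARS-UCD1.2 as listed for each gene. A planned search of promoters for motifs was not run, and no sequence is shown. Totals of 12471493 to 22352909 counts in the 8 treated libraries set the counting error, which the spread between cows includes.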

Additional observations from a re-analysis of the deposited data

Results flagged for a closer look

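The effect against saline differed between 12 h and 4 h in 6764 genes (edgeR's quasi-likelihood test with Benjamini-Hochberg adjustment). Both effects share the saline cows, so this is the comparison of 12 h with 4 h given above and not a further result.

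In each group of 4 cows, the TPM of the 190 genes followed individually was searched for a cow far from the other 3. Of 380 groups, 24 held such a cow, and chance gives about 1 in 20 groups. At 12 h, 8 of these values belonged to cow 12H-6314. It was higher than the other 3 cows in CSF1 (11.3 TPM against 3.81 to 4.83), the endothelial protein PECAM1 (79.5 against 35.9 to 37.5), the VEGF receptor FLT1 (10.1 against 6.1 to 6.29), C1QB (143 against 91.4 to 100.1), NFKB1 (17.4 against 13.3 to 13.8), HSPH1 (34.6 against 25.4 to 26.6) and MCM5 (12.5 against 8.21 to 8.79), and lower in ITPR2 (2.72 against 3.28 to 3.36). At 4 h, 5 values belonged to cow 4H-6455, which was lower in HSP90AA1 (942 TPM against 1232 to 1244), ITPR2 (7.34 against 12.4 to 12.9) and APCDD1 (17.5 against 20.3 to 20.5), and higher in JUN (65.9 against 48.1 to 50.4) and SLC2A5 (0.73 against 0 to 0.06).

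Cow 4H-4291 at 4 h was higher in POR (170 TPM against 137 to 143) and MRPL15 (34.2 against 27.5 to 28.6) and lower in PLK3 (36.7 against 63.4 to 65.8). Cow 4H-5341 was higher in BIRC2 (75.2 against 49.2 to 52.2) and CD24 (15.2 against 6.76 to 8.02), and cow 4H-6456 in C1QB (80.6 against 42.4 to 48.9). At 12 h cow 12H-7475 was lower in DEF6 (2.29 against 2.92 to 3.04) and NPAS2 (854 against 1024 to 1036) and higher in SLCO2A1 (11.8 against 8.76 to 9.21), cow 12H-5266 was lower in SHF (84.7 against 104 to 108), and cow 12H-7382 was higher in EGR3 (4.2 against 1.66 to 1.97).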

How the results depend on the processing

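No paired analysis was possible because the replicate numbers are cow numbers and no number is shared between groups. The total of genes called between the times stayed within 1.5 times of 6764 under every alternative. The number of increases did not: it was 1304 on log2(TPM + 1) and 1298 on log2(TPM + 0.1), against 3252 on counts. The reversed course held 248 genes with DESeq2 and 247 without cows 4H-6455 and 12H-6314, against 140. When 1 library was left out, the count was 5851 to 6816 for calls between the times (2602 to 3472 higher, 2999 to 3521 lower), 1278 to 2178 for 4 h against saline and 6145 to 7216 for 12 h against saline. By course it was 311 to 574 returned, 77 to 129 partly returned, 76 to 219 reversed, 480 to 777 persisted, 152 to 316 extended, 87 to 270 unresolved and 3805 to 4578 that only began after 4 h. Beside the cows named with the courses above, saline cows C-4285, C-6464 and C-7367 and cow 4H-5341 left 83, 85, 79 and 80 reversed genes, saline cow C-7367 left 497 persisted and 193 extended genes, and saline cow C-7514 left 480 persisted. Calls of 4 h against saline numbered 1309 without cow 4H-5341 and 1278 without saline cow C-7514, and unresolved genes 87 without cow 4H-5341, 132 without cow 4H-6455, 113 without cow 4H-6456, 126 without saline cow C-6464, 122 without saline cow C-7367 and 89 without saline cow C-7514. Of the returned genes, 94.8% had the same course with DESeq2, 76.6% with the length trend removed, 71.9% without cows 4H-6455 and 12H-6314 and 46.2% on log2(TPM + 1). For the genes that only began to change these shares were 95.2%, 78.2%, 86% and 69%. Without saline cow C-7514, 50% of the reversed and 51.5% of the extended genes kept their course. Without cow 4H-5341, 49.8% of the returned genes did.

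Of the 190 genes followed individually, 190 had the same direction and call with DESeq2, 189 with RLE scaling, 190 without mitochondrially encoded genes, 189 in the 8 treated libraries alone, 186 with no count minimum, 182 with the length trend removed, 176 without cows 4H-6455 and 12H-6314 and 166 on log2(TPM + 1). A minimum of 50 counts left 182 of them tested, all with the same call. The genes whose sign changed were called on neither scale. On log2(TPM + 1) and log2(TPM + 0.1) the differences were -0.274 and -0.307 for CTLA4, -0.0764 and -0.0912 for MMP1, -0.231 and -0.232 for PLIN2, -0.0166 and -0.0171 for LCAT, -0.156 and -0.246 for ARHGAP20, -0.0225 and -0.0357 for RAB3A, -0.138 and -0.209 for PLIN1 and -0.333 and -0.347 for LIPE. KDR was at 0.285 with the length trend removed, ARHGAP20 at -0.021 with no count minimum and -0.00808 without cows 4H-6455 and 12H-6314, and GPRC5A at 0.122 without these cows. With 1 library left out the differences ran from -0.142 to 0.310 for CTLA4, -0.417 to 0.156 for GPRC5A, -0.272 to 0.698 for MMP1, -0.0839 to 0.236 for PLIN2, -0.0985 to 0.142 for ARHGAP20, -0.0344 to 0.144 for PLIN1 and -0.357 to 0.268 for LIPE. Calls of PI16 (adjusted p up to 0.24) and DEF6 (up to 0.113) were lost without 8 and 9 of the 12 libraries in turn. On log2(TPM + 1) the calls of B2M, CD74, CD8A, DEF6, DUSP10, FEN1, HSD11B1, JUN, MCM3, MCM5, OXT, PI16 and PSMB8 were lost, and with the length trend removed those of B2M, CD74, HAS2, MKI67, OXT and SREBF2. The causes were not tested.

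Cows of 1 time were sampled once, so that no course was followed within an animal, and the saline cows carry no hour. With 4 cows per group and totals of at least 12471493 counts in the treated libraries, low genes such as MYBPC3 and PER2 have few reads behind each value, and a difference that was not called is not shown to be absent.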

Other observations

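A further 1220 genes were called between 4 h and 12 h with no call against saline at either time, 800 higher at 12 h and 420 lower. For those that rose, the median log2 difference from saline was -0.28 at 4 h and 0.24 at 12 h. For those that fell it was 0.31 and -0.30. The calls that select these genes favor a saline level between the times, and the medians do not show it for each gene. HSD11B1, which reactivates glucocorticoids, was at 9.68, 7.81, 34.3 and 31.2 TPM in saline, 11.4, 7.27, 5.75 and 9.35 TPM at 4 h and 25.5, 10.3, 25.1 and 17.3 TPM at 12 h. The 4 h cows lay at the low end of a wide saline range, and the 12 h cows overlapped them through cow 12H-6314 (log2 fold change 1.53 ± 0.49, SE, adjusted p = 0.022). It was not called without cow 4H-5341, 4H-6455, 12H-5266 or 12H-7382 (adjusted p = 0.052 to 0.062). INHA, the inhibin alpha subunit, went the other way, from 139, 163, 129 and 137 TPM to 76.5, 66, 70.0 and 88.7 TPM without overlap (log2 fold change -0.62 ± 0.17, SE, adjusted p = 0.01), with 147, 129, 81.1 and 108 TPM in saline.

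Some antigen presentation genes were among these increases. In that list 5 of 18 rose and 1 fell between the times, beside 22.5% and 24.3% of all genes. On log2(TPM + 1) 1 rose and 4 fell. Against saline, 4 members were called lower at 12 h (TAP1, TAP2, ERAP1 and ERAP2) and 0 higher. The immunoproteasome subunit PSMB8 went from 129.9, 96.1, 91.3 and 135 TPM to 161, 169, 160.4 and 163 TPM and PSMB10 from 119, 97.6, 106 and 109 TPM to 165, 143, 135 and 143 TPM, with saline cows spread from 97.6 to 236 and 106 to 181 TPM. The times did not overlap for either subunit, and the log2 rises were 0.82 ± 0.22 (SE, adjusted p = 0.0099) and 0.73 ± 0.16 (SE, adjusted p = 0.0027). The class I light chain B2M and the invariant chain CD74 rose by 0.80 and 0.56 with overlapping TPM. These calls were lost without 7 and 6 of the 12 libraries in turn (adjusted p = 0.055 to 0.13 and 0.051 to 0.13). On log2(TPM + 1) neither B2M, CD74 nor PSMB8 was called (adjusted p = 0.19, 0.38 and 0.067).

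Prostaglandin genes of low level were among the decreases. PTGS2, the inducible cyclooxygenase, was at 0.8, 0.91, 1.08 and 0.79 TPM in saline, 0.66, 1.01, 1.58 and 1.2 TPM at 4 h and 0.38, 0.51, 0.51 and 0.45 TPM at 12 h (log2 fold change -0.99 ± 0.29, SE, adjusted p = 0.015). The receptors of prostaglandin E2 and prostacyclin, PTGER2 and PTGIR, went from 1.46, 2.07, 1.79 and 1.78 TPM to 0.64, 0.92, 0.26 and 0.09 TPM and from 0.52, 0.67, 1.03 and 0.57 TPM to 0.27, 0.3, 0.19 and 0.28 TPM, with log2 fold changes of -1.60 and -1.15. None of the 3 overlapped between the times, and without cows 4H-6455 and 12H-6314 PTGS2 and PTGIR were not called (adjusted p = 0.071 and 0.058).

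In another 1367 genes the sole call was between 12 h and saline, 638 higher and 729 lower, so that the data do not place their change before or after 4 h.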
